A study of Mus musculus and Homo sapiens with 27 samples.

Results

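This section describes what changed in the RNA of mouse B cells heterozygous for Irf4 over the first day of culture with lipopolysaccharide (LPS). The cells are called Het here. The compared arrays were chosen by their titles, 2 arrays of Het cells after 24 h of LPS and 3 arrays of unstimulated Het cells, 5 of the 27 arrays of the series. B cells came from the spleen of adult Balb-c mice and were grown in RPMI with fetal bovine serum, and the stated LPS dose was 20 to 25 mg/ml. Every Het sample, resting or stimulated, carried 1 intact and 1 disrupted Irf4 allele, so no wild-type cell is part of the comparison. B cells that lack Irf4 (KO) gave 3 arrays at 0 h and 3 at 24 h, and Het cells gave 2 further arrays at 48 h and 4 at 96 h. RNA of each sample, labelled with Cy5, was hybridised to a lymphochip against a Cy3-labelled pool of RNA from B-cell, T-cell and monocyte lines. The lymphochip carries spotted cDNAs chosen for their expression in lymphoid cells. The series' design text calls the repeats biological, and whether they came from separate mice is not stated, so the p-values measure the spread between these samples.

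Resting splenic B cells are small, quiescent lymphocytes that circulate until they meet antigen or a microbial product. LPS, a component of the wall of Gram-negative bacteria, is sensed by Toll-like receptor 4, and a B cell that receives this signal leaves quiescence, grows, copies its DNA and divides. After several days of culture some of the progeny become antibody-secreting plasmablasts, a step that needs the transcription factor IRF4. The 24 h samples were taken between the resting state and that later step.

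A level is the log2 ratio of the sample over the pool after each array was centred on its median, and a difference is the mean of the 24 h levels minus the mean of the 0 h levels. A value is averaged over the features (cDNA spots) that carry the same gene symbol, and 331 genes were measured in this way. Of these genes 44 passed an adjusted p of 0.05 in limma between 24 h and 0 h, which is 13.3% of the genes tested. Of them 35 were higher at 24 h (10.6% of genes tested) and 9 were lower (2.72%). The median difference over all 331 genes was 0.17. The genes that rose belonged mostly to DNA replication, nucleolar growth, amino acid and nucleotide synthesis, and glycolysis and respiration. The genes that fell included 5 of the 8 measured genes of a list of quiescence regulators. This list and the other gene lists were drawn up with earlier results of these data known. Their counts and medians are therefore descriptions. Directions rest on the ratio being sample over pool, which the labels' dyes imply and the deposited values do not state. Cd79b, a subunit of the B-cell receptor, lay above the pool on every one of the 23 mouse arrays.

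The calls rest on a spread estimated over all 23 mouse arrays, since 2 arrays against 3 leave little to estimate it from. With only the Het 0 h and 24 h arrays fitted, 0 genes passed in limma and 23 had an unadjusted p under 0.05, against 103 in the fit of all arrays. Without Het 24 h replicate 1, 5 genes passed, and with quantile normalization 17, 11 higher and 6 lower. With the arrays centred over the features that carry 1 symbol, 99 genes passed, 55 higher and 44 lower, and the median over all genes moved from 0.17 to -0.11. All 44 genes kept their direction under every alternative that gave a value. In each of them both 24 h arrays lay on the same side of all 0 h arrays. Leaving out arrays could therefore not change a direction, and those alternatives are no check of it.

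The 5 arrays were not alike in spread. Het 0 h replicates 1 and 2 and Het 24 h replicate 1 carry the lowest array-database numbers in the labels. Of their features 12.2% to 16.4% had a deposited value, before centring, below -6. On Het 0 h replicate 3 this share was 1.5% and on Het 24 h replicate 2 it was 0.277%. Very low levels on those 3 arrays enter some of the differences given below. For this reason 2 further differences are given for some of the called genes. That within the lowest database range is 24 h replicate 1 minus the mean of 0 h replicates 1 and 2. That outside it is 24 h replicate 2 minus 0 h replicate 3. They are given mainly where the difference outside the range was clearly smaller than the reported one. A gene without them can also be smaller outside. Among genes not called, Cd79b differed by -0.92 and by -0.15 outside, and H2-DMa by -1.60 and by -0.89 outside. All 44 called genes had the same direction within and outside the range. Their medians were 3.26 within and 2.24 outside for the 35 higher genes, and -2.15 and -1.68 for the 9 lower genes. The 2 values share no array, but the 44 genes were called from the difference over these same 5 arrays. In all 44 both 24 h arrays lay on the same side of all 0 h arrays. The shared direction follows from that alone and is no replication. Over all 331 genes the median difference was 0.06 within and 0.55 outside. A difference outside the range that is near 0.55 therefore does not stand out from the other genes. The values within and outside correlated over all 331 genes with Pearson's r = 0.40 and a Spearman rank correlation of 0.58. This is a description across genes, which are not independent replicates.

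**Figure D1:**
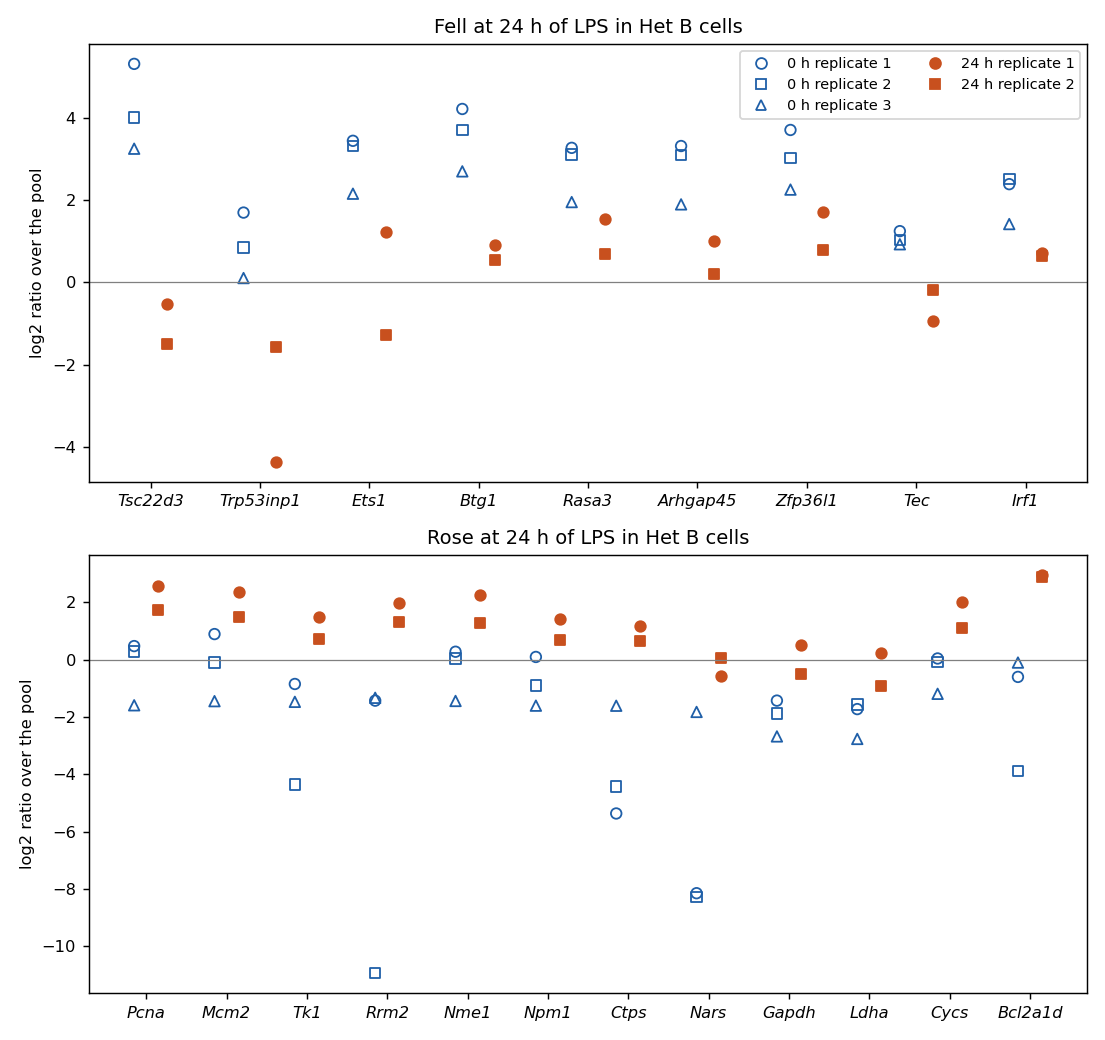
Level (log2 ratio of sample over pool, centred per array) of the 9 genes that fell and of 12 of the 35 that rose, 1 symbol per array, open for 0 h and filled for 24 h. For each gene shown, as for all 44 called genes, every 24 h array lies on the same side of all 3 arrays at 0 h. Nars and Rrm2 show the very low 0 h levels of replicates 1 and 2 or of replicate 2.

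Quiescence regulators fell. Tsc22d3 encodes GILZ, a leucine-zipper protein induced by glucocorticoids and by FOXO factors in resting lymphocytes. Its level was 5.31, 4.00 and 3.25 on the 3 arrays at 0 h and -0.51 and -1.50 on the 2 arrays at 24 h. It fell by 5.19 ± 0.54 (SE), 36.6-fold, with a limma adjusted p of 4.75e-06, the smallest of all genes. Both 24 h arrays lay below all 0 h arrays, as in 8.76% of all genes tested. The lowest resting array lay above the pool and both stimulated arrays lay below it. The difference was -5.17 within the lowest database range and -4.75 outside it, so the fall was of like size on both sets of arrays.

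Btg1, an antiproliferative gene of the BTG/TOB family, had levels of 4.21, 3.71 and 2.70 at 0 h and of 0.91 and 0.55 at 24 h. It fell by 2.81 ± 0.47 (SE; limma adjusted p = 0.00116), and it stayed above the pool at 24 h. Ets1, a transcription factor that restrains plasma-cell differentiation, stood at 3.44, 3.31 and 2.15 at rest and at 1.22 and -1.27 after 24 h. It fell by 2.99 ± 0.66 (SE; limma adjusted p = 0.00943), and its 2 stimulated arrays lay further apart than its 3 resting arrays.

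Trp53inp1, a p53 target that acts in cell-cycle arrest and stress responses, went from 1.70, 0.84 and 0.11 to -4.36 and -1.58. It fell by 3.85 ± 0.85 (SE; limma adjusted p = 0.00943). The difference was -5.63 within the lowest database range and -1.68 outside it, so its size depends on the array with the very low value. Rasa3, a GTPase-activating protein that switches off Ras and Rap, went from 3.27, 3.10 and 1.95 to 1.53 and 0.68, a difference of -1.67 (limma adjusted p = 0.0206).

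The 3 measured members of the quiescence list that did not pass were Add1, Akap12 and Foxp1, and Akap12, a scaffold of protein kinase A, differed by -1.07 (limma adjusted p = 0.139). All 8 members had differences below 0, with a median of -2.24 beside 0.17 over all genes. In 5 of the 8, both arrays at 24 h lay below all 3 arrays at 0 h, against 8.76% of all genes tested. Because the list was drawn up with earlier results of these data known, these counts are a description and not a test.

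The other 4 genes that fell lie outside that list. Arhgap45 had levels of 3.31, 3.09 and 1.90 at 0 h and of 1.00 and 0.20 at 24 h, and fell by 2.17 (limma adjusted p = 0.0121). Zfp36l1, an RNA-binding protein that destabilises AU-rich mRNAs and restrains cell-cycle entry of B-cell precursors, fell by 1.75 (limma adjusted p = 0.0367). Tec, a kinase of antigen-receptor signalling related to Btk, fell by 1.63 (limma adjusted p = 0.00943), from 1.25, 1.03 and 0.93 to -0.94 and -0.19. Irf1, a transcription factor of interferon responses, fell by 1.42 (limma adjusted p = 0.0121), from 2.39, 2.51 and 1.42 to 0.71 and 0.64, and its difference outside the lowest range was -0.77. In each of these 4 genes the groups did not overlap, as in all 9 genes that fell. Of all genes tested 8.76% had both 24 h arrays below all 0 h arrays.

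**Figure D2:**
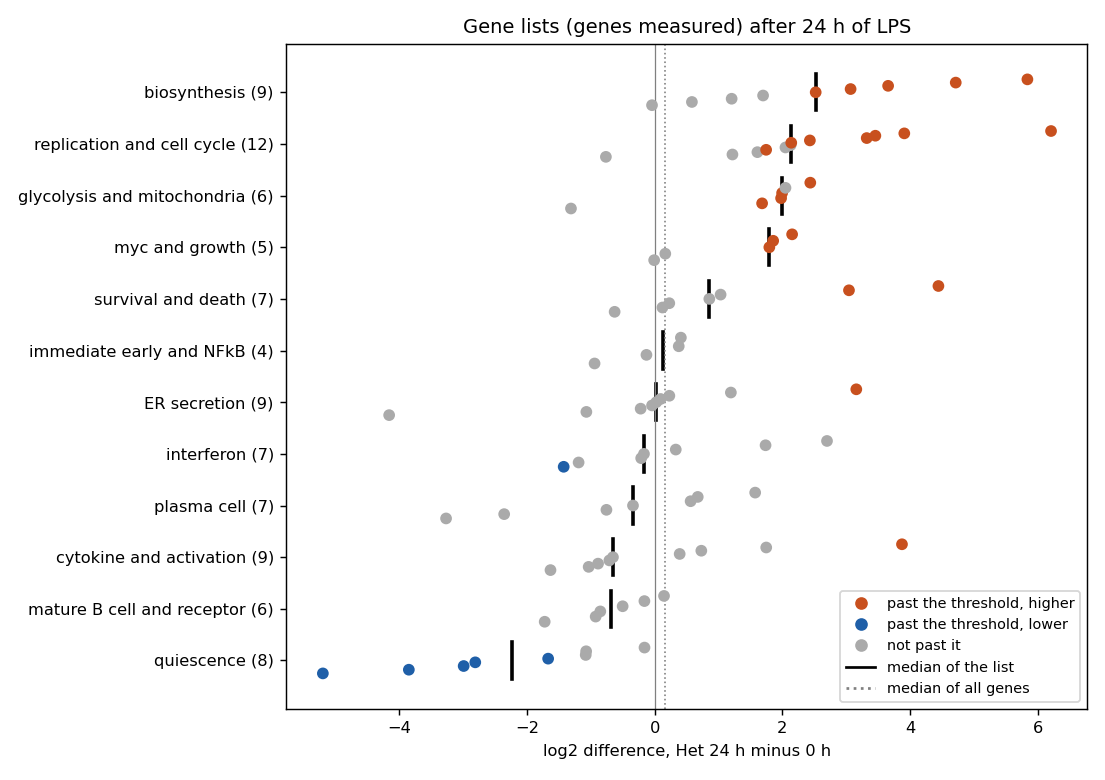
Difference between Het 24 h and 0 h (log2) for the measured members of 12 gene lists, 1 point per gene, with the median of each list as a black bar and the median of all 331 genes (0.17) as a dotted line. Members past the threshold on the higher side sit mainly in the 4 lists of biosynthesis, replication, glycolysis and growth, and those past it on the lower side in quiescence.

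DNA replication and cell-cycle genes rose. Of 12 measured members 7 passed on the higher side, beside 10.6% of all genes tested, and 0 on the lower, with a median of 2.13. In 10 of the 12, both arrays at 24 h lay above all arrays at 0 h, against 23.6% of all genes tested. Pcna, the sliding clamp of DNA polymerases, had levels of 0.48, 0.28 and -1.59 at 0 h and of 2.56 and 1.75 at 24 h. It rose by 2.43 ± 0.59 (SE), 5.39-fold, with a limma adjusted p of 0.0121. Mcm2, a subunit of the replicative helicase, went from 0.90, -0.10 and -1.44 to 2.35 and 1.50 and rose by 2.14 ± 0.57 (SE; limma adjusted p = 0.0179). For both genes the resting array with the lowest level was replicate 3, which is outside the lowest database range.

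Ccne1, the cyclin E that drives entry into S phase, rose by 1.75 (limma adjusted p = 0.0121), from 0.37, -0.07 and -1.10 to 1.74 and 1.22. Tk1, thymidine kinase of the salvage pathway, rose by 3.32 (limma adjusted p = 0.00943), from -0.84, -4.35 and -1.47 to 1.49 and 0.71, and by 2.18 outside the lowest database range. Fen1, the flap endonuclease that processes Okazaki fragments, rose by 3.46 (limma adjusted p = 0.0189), and by 2.16 outside that range. Nasp, a histone chaperone, rose by 3.91 (limma adjusted p = 0.012). Its 2 features gave 2.61 and 5.21, and its difference ranged from 2.25 to 4.98 over the alternatives. In these last 3 genes Het 0 h replicate 2 gave the lowest level, at -4.35, -4.94 and -5.16.

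Rrm2, the small subunit of ribonucleotide reductase, had the largest difference of all genes, 6.21 ± 1.88 (SE; limma adjusted p = 0.0345). Its levels were -1.42, -10.93 and -1.32 at 0 h and 1.99 and 1.31 at 24 h. Outside the lowest database range, where the very low array plays no part, the difference was 2.64. The direction of the Rrm2 rise is shared by all arrays and its size is set by 1 resting array. The same array sets the size for Tfdp1, the dimerisation partner of E2F factors, which is in none of the lists. Tfdp1 stood at -0.05, -10.15 and -1.41 at rest and at 2.01 and 1.51 after 24 h, a difference of 5.63 (limma adjusted p = 0.0358), and of 2.92 outside the lowest range.

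Genes of growth and of the nucleolus rose while Myc did not differ by more than its error. Nme1, a nucleoside diphosphate kinase, went from 0.28, 0.05 and -1.44 to 2.27 and 1.30 and rose by 2.15 ± 0.46 (SE; limma adjusted p = 0.00943). Npm1, the nucleolar chaperone nucleophosmin, rose by 1.86 (limma adjusted p = 0.0183), from 0.10, -0.90 and -1.60 to 1.42 and 0.69. Ncl, nucleolin of ribosome assembly, rose by 1.80 (limma adjusted p = 0.0334), from 0.48, 0.38 and -1.40 to 2.18 and 1.06. Of the 5 measured members of the Myc and growth list these 3 rose, beside 10.6% of all genes tested. The list's median was 1.80.

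Myc, a transcription factor whose mRNA is known to be induced early after B-cell stimulation, had levels of 1.84, 0.40 and -0.07 at 0 h and of 1.29 and 0.14 at 24 h. Its difference was -0.01 ± 0.75 (SE; limma adjusted p = 0.992), and its arrays overlapped. The 4 measured immediate early and NF-kB genes gave 0 calls in limma, with differences from -0.94 to 0.41. A list of this size cannot be told apart from the 13.3% called over all genes. Jun differed by -0.94 (limma adjusted p = 0.25), Nr4a1 by 0.38 (limma adjusted p = 0.672) and Ikbke by 0.41 (limma adjusted p = 0.66). The earliest stimulated sample was taken at 24 h, so levels in the first hours are not part of the data.

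Genes of amino acid, nucleotide and carbon metabolism rose, 5 of 9 measured beside 10.6% of all genes tested, with the highest list median, 2.52. That median was 3.26 within the lowest database range and 1.20 outside it. Outside the range the lists of replication (2.44), growth (2.29) and glycolysis (2.01) had higher medians, so the rank depends on the arrays used. Ctps, the CTP synthase that makes a pyrimidine nucleotide for RNA and DNA, had levels of -5.36, -4.43 and -1.60 at 0 h and of 1.17 and 0.67 at 24 h. It rose by 4.71 ± 0.73 (SE; limma adjusted p = 0.000711), by 6.06 within and by 2.27 outside the lowest database range. Its 2 features gave 7.43 and 2.00, the same direction with sizes far apart. Nars, which charges tRNA with asparagine, went from -8.14, -8.28 and -1.82 to -0.56 and 0.07. It differed by 5.84 ± 1.24 (SE; limma adjusted p = 0.00943), by 7.65 within and by 1.89 outside the lowest range.

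Mthfd2, a mitochondrial enzyme of one-carbon metabolism, rose by 2.52 (limma adjusted p = 0.0179), from -0.96, -4.50 and -1.60 to 0.53 and -0.20, and by 1.41 outside the lowest range. Idh1, the cytosolic isocitrate dehydrogenase, differed by 3.66 (limma adjusted p = 0.0183), and Gbe1, the glycogen branching enzyme, by 3.07 (limma adjusted p = 0.0103). For Idh1 and Gbe1 the differences outside the lowest range were 0.18 and 0.32, below the median of 0.55 over all genes there. Nearly all of the size came from the 3 arrays with the widest spread. The 2 features of Gbe1 gave 5.87 and 0.26.

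Genes of glycolysis and respiration rose, 4 of 6 measured beside 10.6% of all genes tested, with a median of 1.99. Gapdh, a glycolytic enzyme often used as a reference gene, had levels of -1.42, -1.87 and -2.67 at 0 h and of 0.52 and -0.51 at 24 h, and rose by 2.00 ± 0.49 (SE; limma adjusted p = 0.0121). Ldha, which makes lactate, went from -1.72, -1.57 and -2.76 to 0.23 and -0.90 and rose by 1.68 (limma adjusted p = 0.0125). Cycs, cytochrome c, went from 0.05, -0.08 and -1.19 to 2.03 and 1.12 and rose by 1.98 (limma adjusted p = 0.0121). For these 3 genes the difference was about the same within the lowest database range (2.17, 1.88 and 2.05) as outside it (2.17, 1.86 and 2.30).

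Ndufa1, a subunit of respiratory complex I, rose by 2.44 (limma adjusted p = 0.0489), close to the threshold. Its levels were -0.57, -4.83 and -0.91 at rest. Outside the lowest database range the difference was 0.91, beside a median of 0.55 over all genes there.

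Of 7 measured survival and death genes 2 rose, beside 10.6% of all genes tested. A list of this size cannot be told apart from that share. Bcl2a1d, an antiapoptotic member of the A1 family of Bcl2 proteins, had levels of -0.60, -3.88 and -0.10 at 0 h and of 2.96 and 2.88 at 24 h. It rose by 4.44 ± 0.75 (SE), 21.8-fold, with a limma adjusted p of 0.00116, and by 2.98 outside the lowest database range. The A1 family has several near-identical copies in the mouse, which a cDNA feature may not tell apart. Bcl2, the founding antiapoptotic gene, differed by 3.04 ± 0.80 (SE; limma adjusted p = 0.0172). Its 2 features gave 5.92 and 0.17. Outside the lowest range the difference was 0.48, below the median of 0.55 over all genes there. The call thus rests on 1 feature and on the arrays with the widest spread. Pim1, a survival kinase, differed by 1.03 (limma adjusted p = 0.287), with both arrays at 24 h above all at 0 h. The same held for 23.6% of all genes tested.

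In the cytokine and activation list 1 of 9 measured genes passed, beside 13.3% of all genes tested. A list of this size cannot be told apart from that share. Csf1, the macrophage colony-stimulating factor, had levels of -3.59, -6.75 and -0.06 at 0 h and of 0.12 and 0.69 at 24 h. Its difference was 3.87 (limma adjusted p = 0.0334), and 0.75 outside the lowest range, beside a median of 0.55 over all genes there. Alpl, an alkaline phosphatase, differed by 1.75 (limma adjusted p = 0.0748) and Entpd1, the ectonucleotidase CD39, by -1.03 (limma adjusted p = 0.0739). Socs2, a feedback inhibitor of cytokine signalling, differed by -0.89 (limma adjusted p = 0.248). The list's median was -0.65.

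The counts for genes of the secretory pathway and of plasma cells stand beside 13.3% called over all genes, and lists of this size cannot be told apart from that share. Of 9 measured genes of endoplasmic reticulum secretion 1 rose, Pdia3, a protein disulfide isomerase, by 3.16 (limma adjusted p = 0.0234) and by 1.29 outside the lowest range, and the list's median was 0.03. Of 7 measured plasma-cell genes 0 passed in limma, and their median was -0.34. Jchain, which links the subunits of polymeric antibodies, had levels of 1.83, 2.65 and 1.45 at 0 h and of -0.56 and -2.02 at 24 h. Both arrays at 24 h lay below the resting arrays, as in 8.76% of all genes tested. The difference of -3.27 ± 1.40 (SE) had a limma adjusted p of 0.121.

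Xbp1, a transcription factor of the secretory programme, differed by 0.68 (limma adjusted p = 0.465), and Ell2, an elongation factor of immunoglobulin mRNA processing, by 1.57 (limma adjusted p = 0.262). Prdm1, the gene of the repressor Blimp-1, had levels of 3.13, 1.81 and -1.66 at 0 h and of 1.87 and -1.20 at 24 h, a difference of -0.75 (limma adjusted p = 0.871). Mzb1, a chaperone of antibody secretion, differed by -0.34 (limma adjusted p = 0.947), with levels from -9.19 to -0.07. Sdc1, syndecan-1, differed by -2.36 (limma adjusted p = 0.32), and its resting arrays ranged from -3.16 to 3.79. For Prdm1, Mzb1 and Sdc1 the arrays of each group spread so widely that a change of several log2 units was not detectable.

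Het 24 h replicate 1 decided the value of some further genes. Edem1, which sorts misfolded proteins for degradation, stood at -7.94 on that array and at 0.13 on the other array at 24 h, with resting levels from -0.59 to 0.91. Its difference was -4.16 (limma adjusted p = 0.0666). Pigv, an enzyme of GPI-anchor synthesis, stood at -7.81 on that array and at -0.02 on the other, a difference of -3.80 (limma adjusted p = 0.053). Srp9, of the signal recognition particle, differed by -1.07 (limma adjusted p = 0.334).

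Mature B-cell and receptor genes gave 0 calls in limma among 6 measured, beside 13.3% of all genes tested, and their median was -0.68. Cd79b differed by -0.92 (limma adjusted p = 0.153), with levels of 3.82, 4.04 and 2.56 at 0 h and of 2.69 and 2.41 at 24 h, above the pool in all 5 samples. Id2, an inhibitor of E proteins, differed by -1.72 (limma adjusted p = 0.278), and Tagap1 by -0.85 (limma adjusted p = 0.427). Of 7 measured interferon genes Irf1 fell and the other 6 did not pass. Lists of this size cannot be told apart from the 13.3% called over all genes. Psme1, a proteasome activator subunit, differed by 1.74 (limma adjusted p = 0.053) and Uba7, the activating enzyme of ISG15, by -1.19 (limma adjusted p = 0.101).

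Markers of other cells that a spleen sample could hold were few on the array. T-cell and NK-cell markers were Cd3g and Gzma, 2 of 26 on the list, and their mean level was -0.40, -0.04 and -1.57 at 0 h and -0.71 and -2.26 at 24 h. Myeloid markers were Ncf1 and Tyrobp, 2 of 15, with means of 0.71, -3.41 and 0.46 at 0 h and -3.41 and 0.69 at 24 h. Both sets overlapped between the groups, and the 4 genes gave 0 calls in limma, with 103 genes at an unadjusted p under 0.05 over the whole table. None of 6 erythroid and platelet markers was measured. B cells were represented by Cd79b alone, 1 of 8 markers. In RNA from a whole culture, a change in the mixture of cells and a change of RNA per cell cannot be told apart.

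The 12 called genes outside the lists that rose included genes of the cytoskeleton, DNA repair and metabolism. Tubb5, a beta-tubulin, rose by 2.40 (limma adjusted p = 0.0121) and Tuba4a, an alpha-tubulin, by 2.03 (limma adjusted p = 0.0367). Apex1, the apurinic endonuclease of base-excision repair, rose by 1.56 (limma adjusted p = 0.0172). Ahcy, which hydrolyses S-adenosylhomocysteine, rose by 2.06 (limma adjusted p = 0.0121) and Got1, a transaminase of the malate-aspartate shuttle, by 1.38 (limma adjusted p = 0.0474). Atp2a2, the calcium pump of the endoplasmic reticulum, rose by 2.35 (limma adjusted p = 0.0121), with differences of 2.46 within and 2.19 outside the lowest range. Psmd1, a subunit of the regulatory particle of the proteasome, rose by 1.96 (limma adjusted p = 0.0206).

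Dnah7b, annotated as an axonemal dynein heavy chain, rose by 2.35 (limma adjusted p = 0.0172), and Nudt4, a diphosphoinositol polyphosphate phosphatase, by 2.42 (limma adjusted p = 0.023). Nudt4 had a level of -4.13 on Het 0 h replicate 2, its difference outside the lowest range was 0.96, and its 2 features gave 0.57 and 4.27. Nup153, a nuclear pore protein, differed by 4.17 (limma adjusted p = 0.023), with a level of -7.23 on Het 0 h replicate 1 and a difference of 1.49 outside the lowest range. Gabpa, an ETS-family transcription factor of nuclear-encoded mitochondrial genes, differed by 3.59 (limma adjusted p = 0.0436), with a level of -5.64 on Het 0 h replicate 2 and a difference of 1.93 outside the lowest range. The tubulins, Ahcy, Apex1, Psmd1, Got1, Atp2a2, Dnah7b and Nudt4 were named because they complete the 44 called genes, after their values were seen.

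Most of the called genes had a second feature on the array. Of the 44 genes 36 had 2 features and 8 had 1, and in all 36 the features had the same direction. The median gap between the features of a called gene was 0.37, and the largest was 5.75, for Bcl2. Over all 216 genes with 2 features, 170 had features of the same direction. Features of a gene share the array's hybridisation, so they are not replicates of the condition.

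Start-site sequence of the called genes was taken from RefSeq, as windows of 250 bases before to 50 bases after an annotated start on GRCm38.p6, matched by symbol. Not every chromosome was searched, so a gene without a window here can have an annotated start in RefSeq. Windows were found for 32 of the 35 genes that rose and for 7 of the 9 that fell. Genes that move together are shown with their letters, searched on both strands for CACGTG, the E-box bound by Myc and related factors, for TTTNNCGC, an E2F-type site, and for TGTTTAC, a FOXO-type site. The windows of Nme1, Apex1 and Btg1 are shown because they hold a match in genes of the groups described above, with the letters of every match to any of the 3 motifs, on either strand, in capitals.
Nme1, minus strand, chr11:93968223-93968522: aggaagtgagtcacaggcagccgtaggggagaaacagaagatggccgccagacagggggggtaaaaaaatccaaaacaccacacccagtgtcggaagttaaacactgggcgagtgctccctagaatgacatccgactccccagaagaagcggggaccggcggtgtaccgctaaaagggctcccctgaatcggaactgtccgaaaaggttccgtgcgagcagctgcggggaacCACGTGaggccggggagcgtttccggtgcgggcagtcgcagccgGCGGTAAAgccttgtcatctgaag
Apex1, plus strand, chr14:50924699-50924998: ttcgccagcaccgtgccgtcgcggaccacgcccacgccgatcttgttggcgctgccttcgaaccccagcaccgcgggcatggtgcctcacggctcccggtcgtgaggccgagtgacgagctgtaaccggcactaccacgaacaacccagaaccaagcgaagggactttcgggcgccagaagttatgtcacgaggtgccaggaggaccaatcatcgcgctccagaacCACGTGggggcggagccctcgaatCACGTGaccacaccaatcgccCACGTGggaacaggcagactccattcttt
Btg1, plus strand, chr10:96616751-96617050: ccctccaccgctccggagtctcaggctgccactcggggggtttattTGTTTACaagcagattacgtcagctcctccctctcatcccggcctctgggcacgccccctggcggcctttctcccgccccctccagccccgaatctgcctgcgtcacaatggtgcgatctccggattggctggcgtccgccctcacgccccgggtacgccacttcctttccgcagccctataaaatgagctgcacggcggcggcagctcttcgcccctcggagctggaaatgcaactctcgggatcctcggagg

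The E-box was present in 6 of the 32 matched genes that rose, 18.8%: Apex1, with 3 matches in its window, Fen1, Ldha, Nme1, Tfdp1 and Tubb5. It was present in 15% of the 266 tested genes with a window and in 8.09% of the 27025 genes of the table. The E2F-type site was present in 4 genes that rose, 12.5%, Ldha, Ncl, Nme1 and Tfdp1, against 10.5% of the tested genes and 5.93% of the table. The FOXO-type site was present in 1 of the 7 matched genes that fell, Btg1, against 3.38% of the tested genes and 4.05% of the table, and in 0 of the 32 that rose. The E-box (in Arhgap45) and the E2F-type site (in Zfp36l1) were also present in 1 of the 7, 14.3% for each of the 3 motifs. The shares in the genes that rose are close to those in the genes on the array, and a match of letters is a description and not a bound site.

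The 24 h response was set beside that of B cells without Irf4, whose arrays are separate from the Het arrays. Irf4 itself was not among the named genes and was not analysed here. In KO cells 5 genes passed between 24 h and 0 h in limma, which is 1.51% of genes tested, 1 higher and 4 lower. Of these, Bcl2a1d rose and Tsc22d3, Btg1 and Trp53inp1 fell, as in Het cells. The remaining gene was Mt2, a metallothionein, which fell by 4.70 in KO cells (limma adjusted p = 0.00725) and differed by -1.63 in Het cells (limma adjusted p = 0.299). The test of the difference between the responses gave 0 calls in limma over the 331 genes (0%), and 26 genes had an unadjusted p under 0.05.

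The 9 genes that fell in Het cells were all lower at 24 h in KO cells too, with no overlap between the 3 KO arrays of each time. Over all 331 genes 188 had a KO difference below 0, and 13.3% had all KO arrays at 24 h below those at 0 h. The median difference of the 9 was -2.17 in Het and -1.80 in KO cells, the KO difference was the smaller in all 9, and the smallest adjusted p for a difference between them was 0.544 in limma. For Tsc22d3 the mean level in KO cells went from 2.79 ± 0.77 (SD, n = 3) to -0.93 ± 0.02 (SD, n = 3), a fall of 3.72 (limma adjusted p = 0.000123). Btg1 in KO cells went from 2.82 ± 0.65 (SD, n = 3) to 0.35 ± 0.46 (SD, n = 3), a fall of 2.47 (limma adjusted p = 0.00241).

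The 35 genes that rose had a median difference of 2.43 in Het and of 0.70 in KO cells. The KO difference was smaller in all 35, it was above 0 in 32, beside 143 of all 331 genes, and in 13 the KO arrays at 24 h lay above those at 0 h, beside 6.04% of all genes. Both sets of genes were chosen for their Het difference, which alone makes the Het values larger on average than those of an independent comparison. The smallest adjusted p for a difference between the responses was 0.218 in limma, for Ctps, which differed by 4.71 in Het and 0.70 in KO cells. In Het cells its mean level went from -3.80 ± 1.96 (SD, n = 3) at 0 h to 0.92 ± 0.35 (SD, n = 2) at 24 h, and in KO cells from -0.46 ± 0.47 (SD, n = 3) to 0.24 ± 0.54 (SD, n = 3). Bcl2a1d in KO cells went from 0.19 ± 0.18 (SD, n = 3) to 3.20 ± 0.87 (SD, n = 3). Over all 331 genes the Het and KO differences correlated with Pearson's r = 0.47 and a Spearman rank correlation of 0.55, a description across genes.

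**Figure D3:**
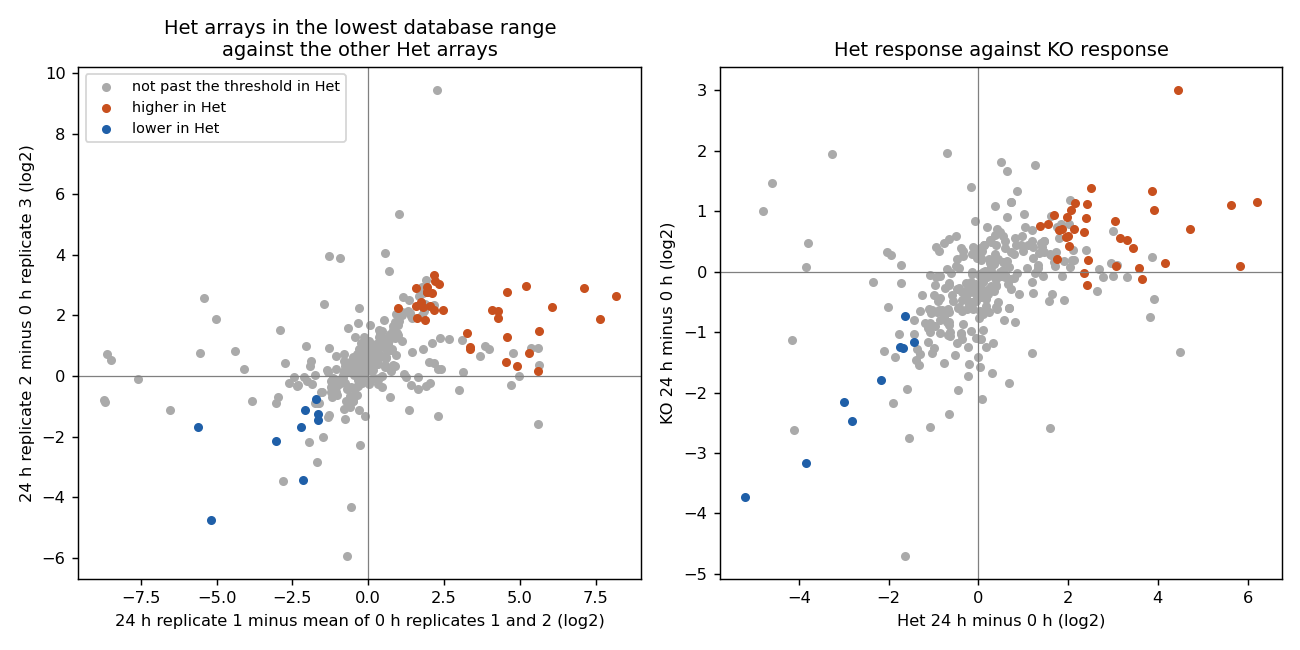
Left, the 24 h minus 0 h difference (log2) of each of the 331 genes outside the lowest database range against that within it. Right, the difference in KO against that in Het cells. Coloured points are the 35 genes called higher and the 9 called lower in Het cells. All have the same direction on both axes on the left, which their non-overlapping groups fix in advance. On the right 32 and 9 of them do.

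The levels reached at 24 h were set beside later Het samples, which share the 24 h arrays with the comparison above. Between 48 h and 24 h, 0 genes passed in limma (0%), with 18 at an unadjusted p under 0.05. Between 96 h and 24 h, 100 genes passed, 30.2% of genes tested, 17 higher and 83 lower at 96 h, with a median of -0.62 over all genes. With the arrays centred over the features that carry 1 symbol, the median was 0.28, and 58 genes were higher and 42 lower. All 96 h arrays lie in the highest database range, which holds none of the 24 h arrays, so time and range cannot be told apart there.

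For the genes named by their rise or fall at 24 h, the same 24 h arrays enter both comparisons, and that choice alone favours an opposite difference between 24 h and 96 h, so the later values are a description. Pcna had mean levels of -0.27 ± 1.14 (SD, n = 3) at 0 h, 2.16 ± 0.58 (SD, n = 2) at 24 h, 1.23 ± 0.11 (SD, n = 2) at 48 h and -1.13 ± 0.69 (SD, n = 4) at 96 h. Its level at 96 h minus that at 24 h was -3.29 (limma adjusted p = 0.00064). Nme1 had means of -0.37, 1.78, 1.10 and -1.01 over the same times, and Cycs of -0.41, 1.57, 0.57 and -1.33. Among the replication genes that had risen, Fen1 differed by -2.12 between 96 h and 24 h (limma adjusted p = 0.0823) and Rrm2 by -2.80 (limma adjusted p = 0.246), and neither passed.

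Bcl2a1d kept a high level, with means of 2.92 ± 0.05 (SD, n = 2) at 24 h, 1.96 ± 0.39 (SD, n = 2) at 48 h and 1.67 ± 0.50 (SD, n = 4) at 96 h, and the 96 h level differed from that at 24 h by -1.25 (limma adjusted p = 0.194). Tsc22d3 stayed low, with means of -1.01 ± 0.70 (SD, n = 2) at 24 h, -0.42 ± 0.51 (SD, n = 2) at 48 h and -0.72 ± 0.43 (SD, n = 4) at 96 h, and a difference of 0.29 between 96 h and 24 h (limma adjusted p = 0.714). Btg1 was higher at 96 h than at 24 h by 1.22 (limma adjusted p = 0.0458) and Trp53inp1 by 4.15 (limma adjusted p = 0.00137). Jchain, low on both arrays at 24 h, reached 4.05 ± 0.18 (SD, n = 4) at 96 h, higher than at 24 h by 5.34 (limma adjusted p = 0.00693). Socs2 was higher at 96 h by 2.57 (limma adjusted p = 0.00115) and Entpd1 by 2.18 (limma adjusted p = 0.00064), and neither had passed between 0 h and 24 h.

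**Figure D4:**
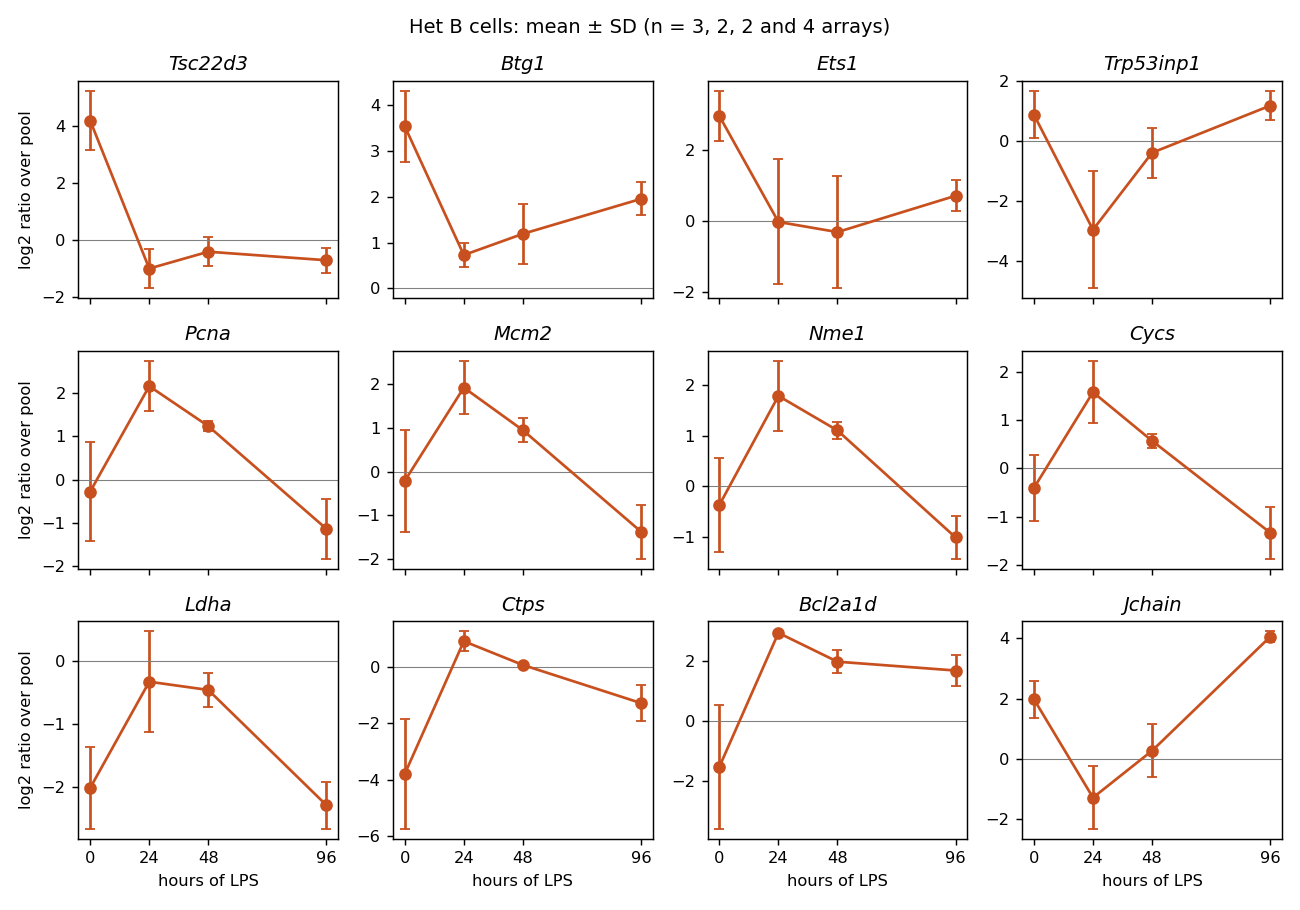
Mean level (log2 ratio over the pool) ± SD of 12 genes in Het B cells at 0, 24, 48 and 96 h of LPS, from 3, 2, 2 and 4 arrays. Tsc22d3 drops by 24 h and stays low, Pcna, Mcm2, Nme1 and Cycs have their highest mean at 24 h, and Jchain has its lowest mean at 24 h and its highest at 96 h.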

How the data were processed

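For each lymphochip array the authors deposited 1 value per feature, with no missing value, taken here as the log2 ratio of its 2 channels. The labels name Cy5 for the sample and Cy3 for the pool. Base 2 and the direction, sample over pool, are assumptions, and the sources used here do not give the scanner, the background correction or the normalization. The median over the 12292 features of an array was subtracted from its values. The platform annotation gives 1 gene symbol for 559 features, several for 44 and none for 11689, and the series' design text counts 701 sequence-checked features. Features of 1 symbol were averaged to 331 genes.

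A mean per genotype and time (8 groups, 23 mouse arrays, 15 residual degrees of freedom) was fitted with limma 3.58.1 in R 4.3.3, with Benjamini-Hochberg adjustment over 331 genes and a threshold of 0.05. An exact 2-sided rank-sum test of 2 arrays against 3 cannot go below p = 0.2. The spread between arrays and their number limit the precision. Titles set the groups. On 3 KO arrays, among them KO 24 h replicate 3, the channel fields say Het. The script was tested on simulated data.

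Named genes were the 10 largest rises and falls, filled up in the falls by smallest p, all called list members, the 3 strongest members of each list, and genes named by earlier results. The 12 lists and all members were chosen with earlier results of these data known. Alternatives covered centring, scaling, very low values, features, the arrays fitted, database range, labels, replicate numbers and each array left out; 2 were added after seeing the data. The 4 human arrays were not used here.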

Additional observations from a re-analysis of the deposited data

Results flagged for a closer look

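Nudt4 stood at -0.56 on Het 96 h replicate 4, while the other 3 arrays at 96 h lay between -1.20 and -1.13. The gap took up 0.901 of the range of the group. It was the only such array among 78 genes looked at in that group, and chance flags about 1 in 20 groups.
Of the 11689 features without a gene symbol here, which the comparison of genes did not use, 105 passed an adjusted p of 0.05 in limma between Het 24 h and 0 h. Of these 56 were higher and 49 lower at 24 h, beside 6 higher and 8 lower of the 559 features with 1 symbol, all adjusted over 12292 features.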

How the results depend on the processing

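Of the 44 genes called between Het 24 h and 0 h, all kept their direction under every alternative that gave a value. For alternatives that only left out arrays this was fixed in advance, since the 24 h and 0 h arrays of these genes did not overlap. The number called moved with the spread and the centring. It was 0 with only the Het 0 h and 24 h arrays fitted, 6 with only Het arrays, 99 with centring over the features of 1 symbol, 67 with no centring, 17 with quantile normalization, 10 with array weights and 0 within the lowest database range, where few arrays remain. It was 55 without that range, 28 of them shared with the 44. It was 77 without Het 0 h replicates 1 and 2, an alternative chosen after seeing the data. Leaving out 1 array at a time gave 5 to 71, with 5 without Het 24 h replicate 1, 71 without Het 0 h replicate 1 and 69 without Het 0 h replicate 3, and a group left with 1 array was taken to vary like the others. Testing each feature alone, also added later, gave 63 higher and 57 lower of 12292.

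For KO cells 5 genes became 37 with centring over the features of 1 symbol, 12 with no centring, 14 with quantile normalization, 12 with scaling of each array's spread, 10 with values beyond 6 log2 units missing, 35 with array weights, 13 with the database range as a factor, 0 within and 21 without the lowest range, 9 in the added alternative, and 6 to 10 with 1 Het array left out. The difference between the responses gave 5 genes with array weights, 2 without the lowest range, 2 in the added alternative and 0 to 10 with 1 array left out, 10 of them without Het 0 h replicate 3 and 7 without Het 24 h replicate 2. Het 48 h minus 24 h gave 2 with centring over the features of 1 symbol, 1 with scaled spread and 0 to 23 with 1 array left out, 23 without Het 24 h replicate 2. Het 96 h minus 24 h gave 46 with only Het arrays, 42 with the database range as a factor and 15 to 122 with 1 array left out, 15 without Het 24 h replicate 1. Why these counts moved was not tested.

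With the replicate number as a block, 39 genes were called in Het cells (38 shared), 4 in KO cells, 0 for the difference, 0 at 48 h and 70 at 96 h. Deviations of same-numbered Het arrays at 0 h and 24 h from their group means correlated at 0.22 and -0.20. With 2 arrays at 24 h, their deviations are the same values with opposite signs. These correlations therefore cannot decide whether the numbers pair the samples, and the main fit did not pair them.

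Signs changed only in genes that did not pass in either fit, as log2 differences. With the database range as a factor Cd3g was 0.012, Gzma 0.34 and Prdm1 1.13. With Het 0 h replicates 1 and 2 left out together, Cd3g was 0.15, Gzma 0.02, Myc 0.78, Prdm1 2.00, Tagap1 0.11 and Tyrobp -0.23. With values beyond 6 log2 units missing, Edem1 was 0.066, Id2 0.37, Mzb1 2.14, Ncf1 2.32, Pigv 0.28, Tyrobp -0.59 and Myc 0.035. Outside the lowest range Edem1 was 0.72, Id2 0.81, Ncf1 0.78, Prdm1 0.47, Tyrobp -0.31 and Myc 0.21. Myc was also 0.044 with no centring, 0.11 with quantile normalization, 0.046 with scaled spread, 0.17 within the lowest range and 0.023 with the replicate block. Mzb1 was 0.026 with the block and 1.09 with conflicting labels taken as Het. With 1 array left out, the range was -2.31 to 0.044 for Cd3g, -4.51 to 1.07 for Id2, -0.094 to 0.92 for Ikbke, -0.58 to 0.57 for Myc, -4.78 to 4.10 for Mzb1, -6.23 to 2.14 for Ncf1, -7.69 to 0.095 for Pigv, -2.29 to 0.78 for Prdm1 and -0.25 to 1.36 for Tyrobp.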

Other observations

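H2-DMa and H2-DMb1, the chains of a chaperone that loads peptides on MHC class II, were lower on both arrays at 24 h than on all arrays at 0 h, as were 8.76% of all genes tested. They were singled out after their values were seen, and neither passed. H2-DMa had levels of 3.90, 3.66 and 2.12 at 0 h and of 2.03 and 1.24 at 24 h, a difference of -1.60 (limma adjusted p = 0.0577). H2-DMb1 differed by -1.33 (limma adjusted p = 0.0825). In KO cells the same genes differed by -1.93 (limma adjusted p = 0.0532) and -1.54 (limma adjusted p = 0.0987).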
